A study of Rattus norvegicus with 15 samples.

Results

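Keratins are the proteins of the intermediate filaments of epithelial cells. A filament is built from pairs of a type I and a type II keratin, and each kind of epithelium makes its own pairs: Krt8 with Krt18 in simple epithelia, Krt5 with Krt14 in the basal layer of stratified epithelia, Krt1 with Krt10 in the layers above it, and further sets in the hair follicle. In the olfactory epithelium, Krt8 and Krt18 are known from the sustentacular (supporting) cells and the glands, while Krt5 and Krt14 mark the horizontal basal cells, a reserve stem cell that lies on the basal lamina. Olfactory neurons, the most numerous cells of the tissue, are not known for keratins.

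The keratin genes were followed here in RNA profiles of the olfactory epithelium of 8 Brown Norway rats aged 6 weeks, 4 males (1, 2, 5 and 6) and 4 females (3, 4, 7 and 8). No treatment, transgene or odorant exposure separates the groups, and the sexes are the only groups the labels give. The olfactory epithelium of each nostril was hybridized to its own Agilent rat array, 1 colour, for 7 rats, and nostril A alone for male 1, giving 7 male and 8 female arrays on 4 slides. The labels state that a left sample of 1 rat was left out for its RNA quality, and do not say for each array whether A or B is the left side. According to the methods the rats came from 2 suppliers, and the labels do not say which rat came from which.

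A probe was taken when its gene name began with Krt, or with Kb or Ka and a number, or when its description held the word keratin not followed by "associated". The rule found 47 of the 41012 probes on the array: 38 by name, 42 by description and 33 by both. Of these, 41 were keratin probes with 38 distinct gene labels, and 6 belonged to other genes whose names contain the word (3 keratin-associated proteins of hair, Krtcap2, Krtdap and Tchp). The old rat names (Ka, Kb) were updated through the RefSeq gene table, by accession or gene ID for 29 probes and by synonym for 11, and 7 probes kept the label of the array. On the array's rn3 annotation, 20 of the keratin probes lay on chromosome 10 and 14 on chromosome 7, the 2 places where the rat keratin genes are clustered. Exons and untranslated regions are not given by this annotation.

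Each probe is a strand of 60 bases. The sequences of the probes on which the results turn are shown first, since keratin genes resemble each other. Runs in common were sought among the 47 probes only, and matches to other transcripts or pseudogenes were not examined. Capitals mark the longest run that each probe shared with the probe of any other of the 47.
Krt5, A_44_P461130: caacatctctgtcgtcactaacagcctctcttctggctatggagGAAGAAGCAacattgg
Krt14, A_44_P251064: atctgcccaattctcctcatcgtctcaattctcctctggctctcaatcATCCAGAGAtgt
Krt14, A_44_P442765: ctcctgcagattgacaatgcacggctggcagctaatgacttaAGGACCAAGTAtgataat
Krt15, A_44_P416695: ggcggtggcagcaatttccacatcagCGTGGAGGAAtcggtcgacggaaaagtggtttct
Krt8, A_42_P784063: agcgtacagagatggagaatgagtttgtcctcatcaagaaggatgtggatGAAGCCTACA
RGD1561232, A_44_P138355: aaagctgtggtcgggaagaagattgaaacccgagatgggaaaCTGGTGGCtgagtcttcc
Krt18, A_44_P400494: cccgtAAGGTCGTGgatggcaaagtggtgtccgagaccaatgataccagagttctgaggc
Krt18, A_44_P1025476: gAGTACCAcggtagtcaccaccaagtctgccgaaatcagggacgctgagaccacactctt
Krt19, A_44_P991819: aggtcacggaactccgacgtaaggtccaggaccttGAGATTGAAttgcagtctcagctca

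On the rn3 build of the array, the Krt8 probe spans chr7:140793404-140794386, the Krt15 probe chr10:89086549-89086608 and the Krt19 probe chr10:89095807-89095866. The Krt5 probe has no position there. The longest run in common between any of the 1081 pairs of probes was 15 bases, and the next longest was 11 bases, in 6 pairs. The pair with 15 bases in common consisted of Krt26, a keratin of the inner root sheath of the hair, and Krt32, a keratin of the hair shaft. The same stretch, with a few letters changed, lay in the probes of Krt25 (12 of 15 letters) and Krt19 (11 of 15 letters).
Krt26, A_44_P179021: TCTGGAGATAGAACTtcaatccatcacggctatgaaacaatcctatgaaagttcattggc
Krt32, A_44_P544088: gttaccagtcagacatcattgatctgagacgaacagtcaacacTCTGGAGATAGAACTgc
The Krt26 probe was well above background on 15 arrays, the Krt32 probe on 0 and the Krt25 probe on 1. Detection therefore differed between probes that carried this common stretch.

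A probe was called expressed when its signal was well above background on at least 11 of the 15 arrays, weakly expressed when it was so on 1 to 10 arrays, and not expressed otherwise. By this measure 18 of the 47 probes (38.3%) were expressed, against 65.1% of all probes on the array. Another 9 were weakly expressed, and 20 (42.6%) were not expressed, against 23.8% of all probes. Among the 41 keratin probes alone, 15 were expressed, 8 weakly expressed and 18 not expressed. Being not expressed gives only an upper bound. The dimmest signal called well above background lay between 0.129 and 0.237 of the array median, depending on the array.

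**Figure D1:**
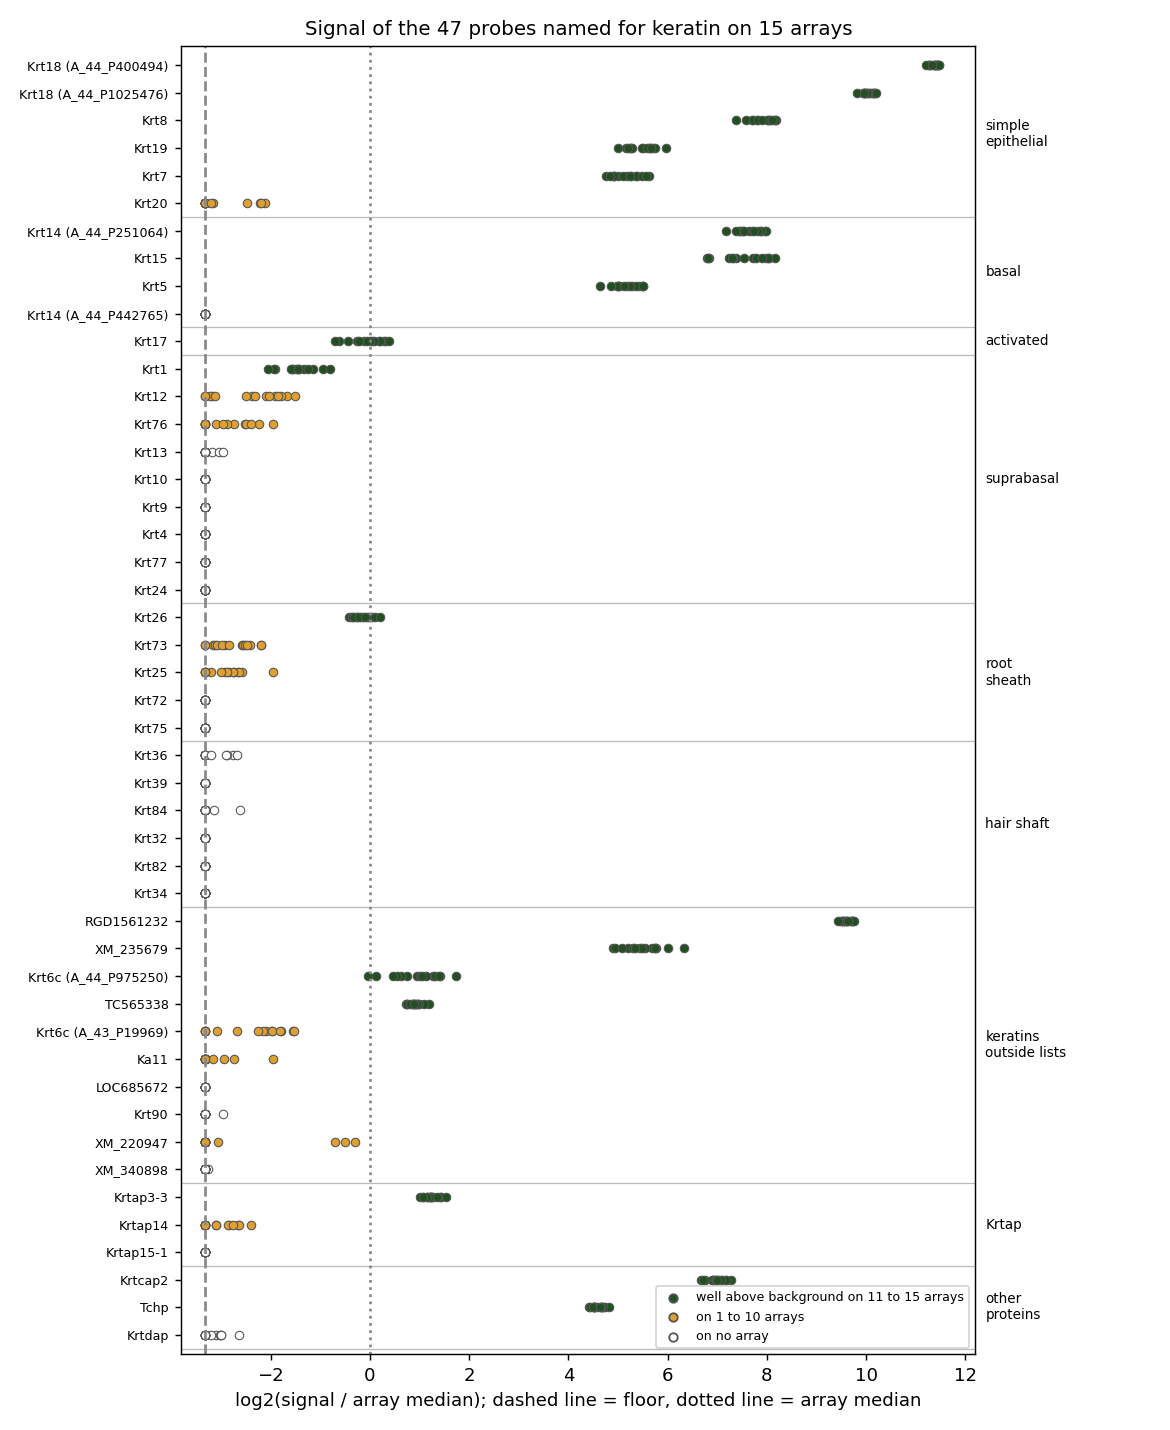
Signal of the 47 probes on 15 arrays, as log2 of signal over the array median, grouped by the epithelium in which each keratin is known. Each row is a probe and each point an array. Green rows were well above background on 11 to 15 arrays, orange rows on 1 to 10 and open rows on none. The simple epithelial and basal rows are mostly green, whereas all 6 hair shaft rows are open. Brightness depends on the probe, so rows are not compared with each other.

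The 15 expressed keratin probes included 5 of the simple epithelial family and 3 of the basal layer family. Another 4 lay outside the lists, and the rest were Krt17, Krt1 and Krt26. Of all probes on the array, 65.1% were expressed. Of the simple epithelial keratins (Krt7, Krt8, Krt18, Krt19, Krt20), 5 of 6 probes were expressed, and the remaining one, Krt20, a keratin of intestinal epithelium, was well above background on 2 arrays. Of the basal layer keratins (Krt5, Krt14, Krt15), 3 of 4 probes were expressed. Krt17, a keratin made in basal cells and after injury, was expressed on all 15 arrays. It was the only member found of the list of activated epithelium keratins (Krt6a, Krt6b, Krt16 and Krt17), which did not hold Krt6c. All 14 of the keratin probes well above background on every array belonged to these families, to Krt26, or to keratin genes outside the lists, and Krt1 was detected on 14 arrays.

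The keratins of dry, layered and hair-bearing epithelium were mostly at background. Of 9 probes for suprabasal keratins only Krt1 was expressed, Krt12, the keratin of the cornea, was weakly expressed on 6 arrays and Krt76 on 1, and the probes of Krt4, Krt9, Krt10, Krt13, Krt24 and Krt77 were well above background on 0 arrays. Krt1 was dim, at 0.243 to 0.573 of the array median. Of the 5 root sheath keratins, Krt26 was expressed, Krt25 and Krt73 were each seen on 1 array, and Krt72 and Krt75 on 0. None of the 6 hair shaft keratins (Krt32, Krt34, Krt36, Krt39, Krt82, Krt84) was detected on any array. Outside that class, XM_235679, described as similar to a hair keratin, and Krtap3-3, a hair shaft matrix gene, were expressed on all 15 arrays.

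Krt1 and Krt26 were the expressed probes of their families. Krt10, the partner of Krt1 in epidermis, was represented by a probe on chromosome 10 that was well above background on 0 arrays. A further probe, TC565338, which the array describes as resembling mouse keratin 10 and places on chromosome 1, was expressed at 1.67 to 2.28 times the array median. Its identity as Krt10 is not established, and it was kept under its own label.

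Markers of skin were examined beside these probes. Of 9 probes for genes of squamous or cornified epithelium, 3 were expressed (Sprr1a, Calm4 and Tgm1), Flg was seen on 1 array, and Ivl, Sprr3, Sprr1b, Krtdap and Dsc1 were at 0 arrays. Of 4 hair follicle probes, Msx2 was detected on 15 arrays and Foxn1 on 9, while Hoxc13 and Thh were at 0. For the tissue itself, all 11 probes of mature olfactory neurons and all 5 of sustentacular cells were expressed. The basal cell regulator Tp63 was expressed by both of its probes, and 10 of 12 probes of horizontal basal cell markers (Tp63, Icam1, Bcam, Itgb4, Itga6, Lamb3 and Col17a1) were expressed. The Col17a1 probe was at 0 arrays.

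Several keratin genes were measured by more than 1 probe, and these did not always behave alike. The Krt14 probe A_44_P251064, in the gene cluster of chromosome 10 (chr10:89158824-89159500, rn3), was between 144 and 252 times the array median, while A_44_P442765, designed on a partial mRNA and without a position, was well above background on 0 arrays. The undetected probe was left out of every test by the filter on detection.

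The Krt18 probes were both expressed on all 15 arrays, but the array places neither at the Krt18 gene. In the RefSeq table (assembly GRCr8), Krt18 lies on chromosome 7 directly beside its partner Krt8, with no other protein-coding gene between them. The array puts A_44_P400494 on chromosome 2 (chr2:79989405-79989464, rn3) and A_44_P1025476 on chromosome 10 (chr10:66120715-66120774, rn3). In its own assembly RefSeq lists a Krt18-like gene (Krt18l1) on chromosome 2 and a Krt18 pseudogene (Krt18-ps1) on chromosome 10. Only the chromosomes were compared, so whether the probes lie at these loci is not known. RefSeq lists 6 Krt18 pseudogenes in all. The signal of these probes may therefore come from more than 1 locus. The same holds for RGD1561232, a locus on chromosome 11 (chr11:64922208-64922267) described as similar to Krt8. It was expressed at 691 to 862 times the array median.

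The probe XM_235679, described as similar to a type II hair keratin of the mouse, was expressed on all 15 arrays, at 29.7 to 80.5 times the array median. It lies at chr7:140284580-140284639 (rn3), between the probes of Krt7 and Krt84. In RefSeq the genes between those are Krt87, Krt88, Krt81, Krt86, Krt83 and Krt85, and which of them, if any, the probe reads cannot be told from its label.

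The keratins were then compared between the sexes. The nostrils of a rat were averaged, and 18 of the 47 probes passed the filter on detection and were tested with all other probes in limma. None of the 18 differed at a false discovery rate of 1%, where 0.0434% of all tested probes did, and none at 5%, where 0.0724% did. A fit of the 15 arrays with rat as a random block placed Krt17 below 5% (-0.52, adjusted p = 0.0452 in limma). The share of all tested probes below 5% in that fit was not computed. Of the 18 probes, 6 were higher in females and 12 in males, with a median difference (female minus male, log2) of -0.05, beside 0.01 over all tested probes. Krt8, Krt17 and Krt6c had an unadjusted p under 0.05, which makes 3 probes or 16.7%, against 17.1% of all tested probes, so that their number was that of the background. The same 3 were the probes whose male and female rats did not overlap, 16.7% against 11.3%.

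Krt8, the type II keratin of simple epithelia, had the smallest p of the 18. On the log2 scale males 1, 2, 5 and 6 stood at 7.80, 7.69, 7.64 and 7.77, and females 3, 4, 7 and 8 at 8.11, 8.11, 8.10 and 8.00. Every female was above every male. The difference was 0.35 ± 0.06 (SE, n = 4 and 4), or 1.28-fold, with an adjusted p of 0.0727 in limma. With slide as a block, a fit in which the sexes meet on slide 1 alone, it was 0.30 ± 0.17 (SE) with an adjusted p of 0.332.

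Krt18, the partner of Krt8, did not show such a difference. Its probe A_44_P400494 differed by 0.02 between the sexes, with a 95% interval from -0.11 to 0.14, and A_44_P1025476 by -0.06, with an interval from -0.20 to 0.08. RGD1561232, the Krt8-like locus, differed by 0.07 (interval -0.06 to 0.20). None of these intervals reached the Krt8 interval of 0.23 to 0.48, although the difference between the probes was not itself tested.

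Markers of sustentacular cells are given beside Krt8. The summed level of their 5 probes was 11.41 to 11.67 in males and 11.62 to 11.79 in females (log2), so that the sexes overlapped, and 3 of the 5 probes had an unadjusted p under 0.05 with the females higher, against 17.1% of all tested probes. Ugt2a1, an odorant-conjugating enzyme, differed by 0.43 and Cyp2g1, an olfactory cytochrome P450, by 0.31, and neither passed 5%. Between nostrils (B minus A) their summed level differed by -0.05, -0.01 and 0.01 in males 2, 5 and 6 and by 0.11, 0.15, 0.01 and 0.16 in females 3, 4, 7 and 8. The differences of Krt8 were -0.62, -0.12 and 0.10 in these males and 0.16, 0.11, 0.14 and 0.21 in these females, of the same sign in 7 of 7 rats. The share of all probes with such agreement was not computed. Mature neuron markers differed by -0.18, -0.08 and 0.24 in these males and 0.07, -0.01, 0.05 and 0.22 in these females. Their sign was unlike that of Krt8 in female 4 only. The part of either list in the Krt8 values was not tested. In tissue RNA, fewer cells of a type and less RNA per cell cannot be told apart.

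Krt17 ran the other way. Males 1, 2, 5 and 6 were at 0.28, 0.18, 0.29 and 0.15 on the log2 scale, and females 3, 4, 7 and 8 at -0.19, -0.54, -0.03 and -0.46. All males were above all females and above the array median, all females below it. The difference was -0.52 ± 0.12 (SE), 1.44-fold, with an adjusted p of 0.109 in limma. With slide as a block, again resting on female array 3A, it was -0.32. After normexp background correction it was -0.26. That correction added an offset of 50 intensity units, beside array medians of 57.4 to 83.4. Such an offset shrinks the log2 differences of dim probes, so the smaller value cannot tell whether the difference is weaker.

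Krt6c, a keratin of the Krt6 family that is known from activated and mucosal epithelium, was also lower in females. Its probe A_44_P975250 stood at 0.95, 1.24, 1.20 and 1.36 in males 1, 2, 5 and 6 and at 0.82, 0.04, 0.80 and 0.93 in females 3, 4, 7 and 8, so that the nearest male and female rats differed by little. The difference was -0.54 ± 0.19 (SE), 1.45-fold, with an adjusted p of 0.196. Leaving out female 4 brought it to -0.34, and normexp background correction, with the same offset, to -0.35. The second Krt6c probe was well above background on 4 male and 2 female arrays and was not tested.

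The squamous markers lay beside these values. Their summed level was 1.28 to 1.69 in males and 0.98 to 1.18 in females, and rested on 3 expressed probes of 9. The sexes did not overlap in it, as in 11.3% of all tested probes taken singly. Sprr1a, a cornified envelope gene, was 0.90 lower in females with an adjusted p of 0.125, whereas Calm4 was 0.80 higher with an adjusted p of 0.332. Involucrin (Ivl) was at 0 arrays. Their part in the Krt17 and Krt6c values was not tested.

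The basal pair followed with smaller differences. Krt14 was -0.25 ± 0.12 and Krt5 -0.24 ± 0.13 (SE, female minus male), with adjusted p of 0.320 and 0.383 in limma, and the sexes overlapped for both. With slide as a block the sign of both turned, to 0.06 for Krt14 and 0.08 for Krt5, in the contrast that rests on female array 3A. Krt15 (-0.13), Krt19 (-0.08) and Krt7 (0.05) differed by less than their standard errors, which were 0.20, 0.12 and 0.18. For Krt15 and Krt7 the 95% intervals, -0.57 to 0.32 and -0.34 to 0.44, leave room for differences as large in size as that of Krt8. Krt1 differed by 0.17 ± 0.22, with values from 0.00872 without male 6 to 0.357 without male 1, and Krt26 by -0.00107 (interval -0.29 to 0.29). With slide as a block Krt26 was at -0.40 and TC565338, at 0.09 without it, at 0.33. These values have the same limit.

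Blood markers were also uneven between the animals. The summed level of their 2 probes, Hbb and Alas2, was 7.61 to 10.43 in males and 6.51 to 9.69 in females (log2), so that the sexes overlapped. Hbb was 1.41 lower in females (adjusted p = 0.290) and Alas2 1.94 lower (adjusted p = 0.302), beside the lower Krt17, Krt6c, Krt14 and Krt5. Between rats both probes differed at 1% (adjusted p of 0.00181 and 0.000792 in limma), and neither did at 5% with slide as a block. Their part in the keratin values was not tested.

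**Figure D2:**
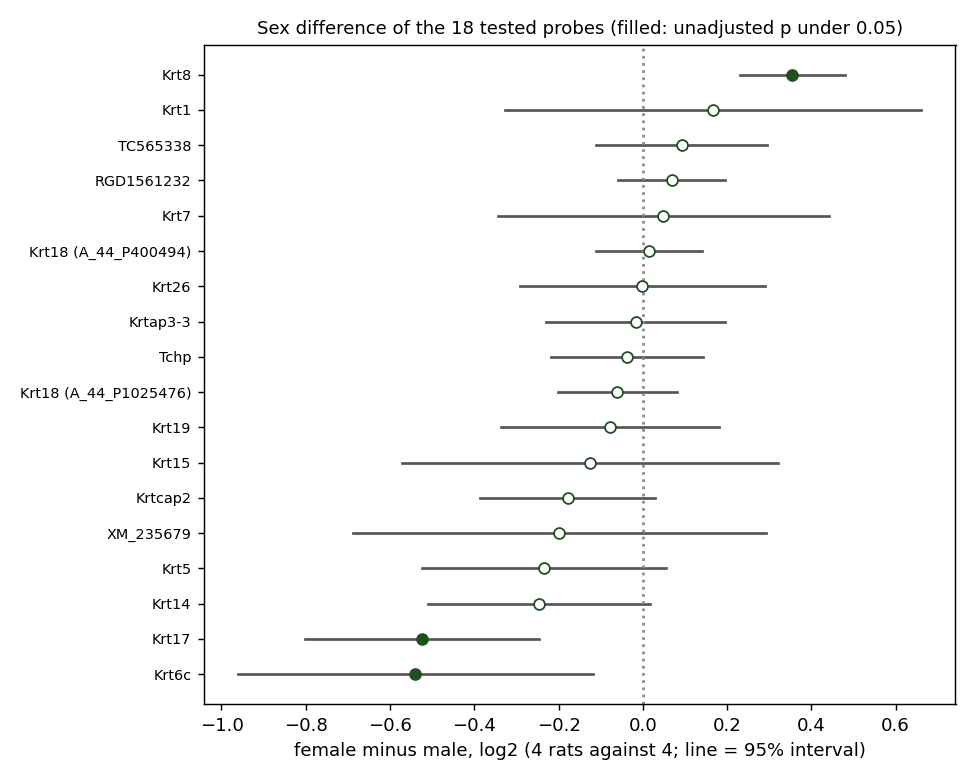
Difference between the sexes (female minus male, log2) of the 18 tested probes, from 4 female and 4 male rats. Points are limma estimates and lines 95% intervals, and filled points have an unadjusted p under 0.05. Krt8 lies to the right of 0 at 0.35, Krt17 and Krt6c to the left at -0.52 and -0.54, and the intervals of the other 15 include 0.

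The rats themselves were compared within each sex, with the nostrils of a rat as its replicates. None of the 18 probes differed at 1%, where 2.79% of all tested probes did. At 5% there were 4, Krt7, XM_235679, Krt14 and Krtcap2, or 22.2% against 16.1% of all tested probes. With slide as a block, which leaves the pairs of rats that were hybridized on the same slide or linked by slide 2, none of the 18 passed 5%, against 0.116% of all probes. The range over the 8 rats had a median of 0.56 (log2) for the 18 probes and 0.47 for all tested probes.

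Krt7, a keratin of ducts and glands, varied most between rats relative to the nostrils (F = 9.84, adjusted p = 0.0175 in limma). Rats 1, 2, 3 and 4 stood at 4.75, 5.04, 4.96 and 4.88, and rats 5, 6, 7 and 8 at 5.18, 5.50, 5.43 and 5.41. The rats on slides 3 and 4 were all above those on slides 1 and 2, by 0.47 on average. Tchp showed the same split with a step of 0.18. Such a lack of overlap was found in 2 of 18 probes (11.1%), beside 11.3% of all tested probes, and slide, rat and supplier cannot be told apart for it. The summed level of the skeletal muscle markers was 0.59 to 0.83 on slides 1 and 2 and 0.98 to 2.72 on slides 3 and 4 (log2), and that of the bone markers 9.10 to 10.03 and 9.98 to 10.72. For the markers of respiratory epithelium and glands it was 12.14 to 12.29 and 12.21 to 12.49. Their part in the Krt7 values was not tested. The call at 5% was lost with normexp background correction (adjusted p = 0.629) and with no probe filter (0.0544).

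XM_235679, the hair keratin-like probe, ranged over 1.12 on the log2 scale, or 2.18-fold, between female 4 at 4.91 and female 7 at 6.03 (F = 7.04, adjusted p = 0.0325 in limma). Its highest array was nostril A of female 7, at 80.5 times the array median, and nostril B of the same rat was at 53.3. In female 7 the summed level (B minus A, log2) was -3.63 for skeletal muscle markers and -1.31 for blood markers. In male 6 it was -1.49 for muscle, where XM_235679 differed by 0.26. The part of these markers in the XM_235679 values was not tested. XM_235679 missed 5% after normexp (adjusted p = 0.332), with no probe filter (0.104), in the authors' table (0.0556) and without female 4 (0.0798) or female 7 (0.131). Krt1 (range 1.05) and Krt6c (range 1.32) had ranges of similar size, with adjusted p of 0.0885 and 0.364. After normexp, whose offset shrinks the differences of dim probes such as Krt1, the range was 0.25 for Krt1 and 1.49 for XM_235679. The SD between nostrils was 0.23 for XM_235679, 0.21 for Krt1 and 0.41 for Krt6c.

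Krt14 followed with F = 6.98 and an adjusted p of 0.0330. The signal of A_44_P251064 was 208 times the array median in male 1. In the other males, nostril A and nostril B gave 184 and 181 in rat 2, 250 and 235 in rat 5, and 252 and 237 in rat 6. In the females they gave 199 and 175 in rat 3, 174 and 165 in rat 4, 226 and 213 in rat 7, and 185 and 144 in rat 8. Males 5 and 6 were the highest rats and female 8 the lowest, with a span of 0.58 between rats on the log2 scale. The call at 5% was lost with 75th percentile scaling (adjusted p = 0.0613), quantile normalization (0.0961), normexp (0.914), the authors' table (0.0617) and no probe filter (0.0894). It was also lost without male 2 (0.114), male 5 (0.0537) or female 7 (0.104).

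**Figure D3:**
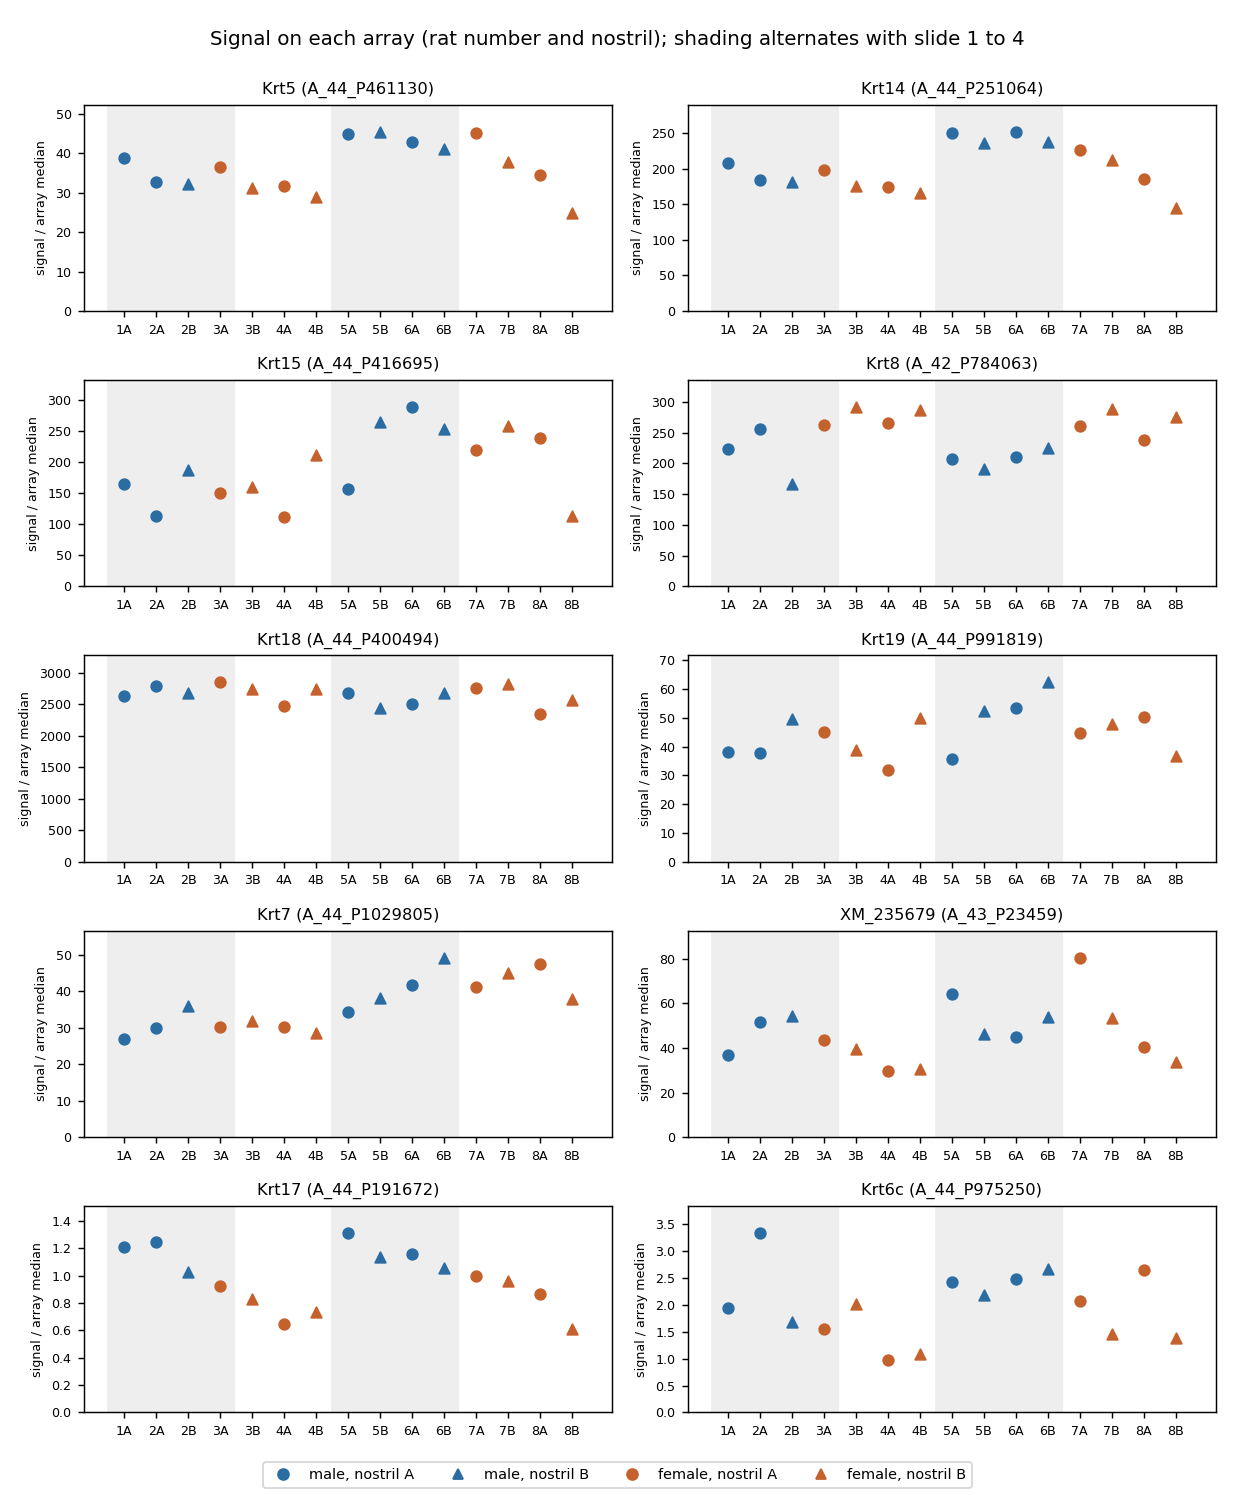
Signal over the array median of 10 keratin probes on each of the 15 arrays, with rat number and nostril on the horizontal axis and the vertical axis from 0. Circles are nostril A, triangles nostril B, blue males and orange females, and the shading alternates with slides 1 to 4. Krt5 and Krt14 follow the same course over the rats, with high values in males 5 and 6 and in nostril A of female 7, while Krt8 is mostly higher in the females and Krt7 mostly higher on slides 3 and 4. Single arrays overlap, as in Krt8, where nostril A of male 2 (256) lies above nostril A of female 8 (238).

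The levels of Krt5 and Krt14 ran in parallel across the animals. Krt5, the type II partner of Krt14, stood at 5.28, 5.02, 5.50 and 5.39 in males 1, 2, 5 and 6, and at 5.08, 4.92, 5.37 and 4.88 in females 3, 4, 7 and 8 (log2). The order of the rats was the same as for Krt14 except that males 5 and 6 changed places. Over the 8 rats Pearson's r was 0.981 (exact permutation p = 0.000174) and Spearman's rho 0.976 (exact permutation p = 0.000397). The pair was singled out after the values of the 153 pairs among the 18 probes were seen, which these p do not take into account. Without male 5 and female 8, the rats farthest from the median of Krt5, r was 0.966.

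Among 27573 other probes, Krt5 ranked 3 in likeness to Krt14 over the rats, behind the probes of Gys2 and BC099786 (r of 0.989 and 0.984). Over all probes the median r with Krt14 was 0.08. In the differences between the nostrils of 7 rats, which the ranking did not use, Krt5 and Krt14 had r = 0.865 as a description, whereas Gys2 and BC099786 had -0.33 and 0.13. This value rested on female 8, without which it was 0.558. By the same measure Krt5 ranked 318 in likeness to Krt14, and Krt15 (0.860), Krt7 (0.848), Krt1 (0.843) and Krt19 (0.841) were about as close. Within the males r was 0.958 and within the females 0.999, and on slides 1 and 2 and slides 3 and 4 it was 0.995 and 0.975, as a description over 4 rats each. The genes lie on different chromosomes, Krt5 on chromosome 7 and Krt14 on chromosome 10, and no run of over 9 bases was found in common between these probes.

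Krt8 and Krt18 were less alike in their values over the 8 rats, although the difference between the pairs was not tested. Here r was 0.25 for the probe A_44_P400494 (exact permutation p = 0.545) and -0.31 for A_44_P1025476 (p = 0.440, exact permutation test), and Krt8 ranked 9481 and 23281 in likeness to them. The Krt18 values spanned only 0.19 and 0.24 on the log2 scale over all rats, less than the 0.47 of Krt8. The exclusion of the rats farthest from the median (males 2 and 5) left r at 0.39 and -0.07. Within the females r was 0.81 and 0.82 and within the males 0.05 and -0.44, each over 4 rats. In the differences between nostrils r was 0.53 and 0.74, with the same sign for Krt8 and each Krt18 probe in 6 of 7 rats.

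**Figure D4:**
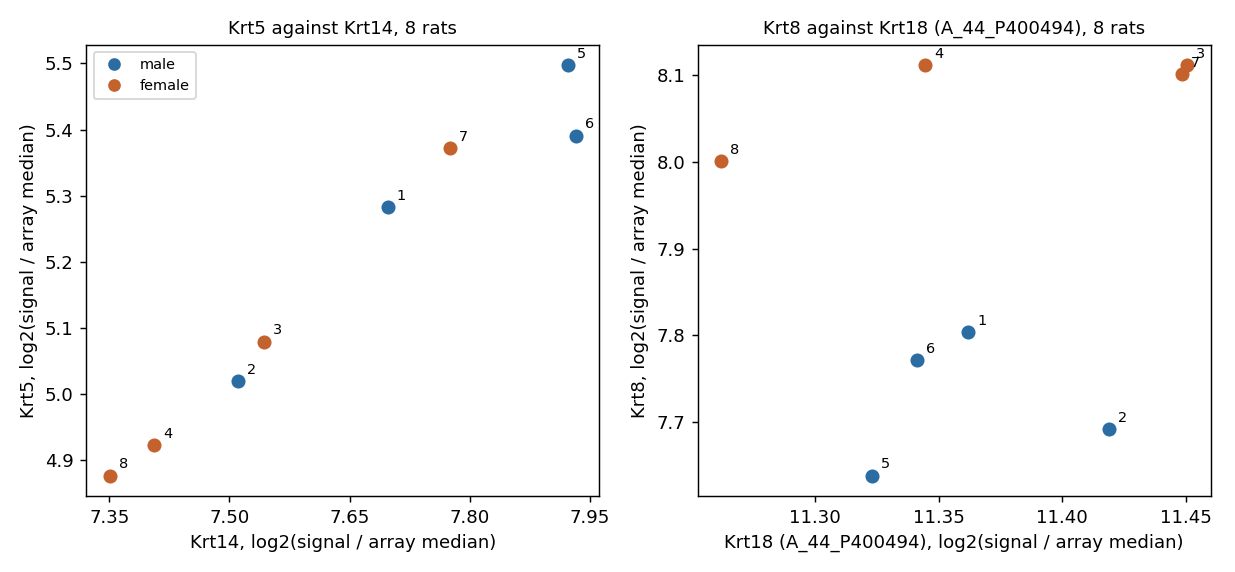
Rat means of Krt5 against Krt14 (left) and of Krt8 against the Krt18 probe A_44_P400494 (right), as log2 of signal over the array median. Each point is 1 of the 8 rats, numbered as in the labels, blue for males and orange for females. On the left the rats lie close to a line (r = 0.981). On the right the 4 females lie above the 4 males at any level of Krt18 (r = 0.25).

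The horizontal basal cell markers had a summed level of 7.60 to 7.96 in males and 7.44 to 7.82 in females (log2), and of 7.44 to 7.63 in rats on slides 1 and 2 against 7.61 to 7.96 on slides 3 and 4. Krt5 and Krt14 were on average 0.21 and 0.21 higher on slides 3 and 4. At 5%, 3 of the 10 tested probes of these markers differed between rats, both Tp63 probes among them, against 16.1% of all tested probes, and 0 did with slide as a block. Their part in the Krt5 and Krt14 values was not tested.

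The nostrils of a rat were compared last, as B minus A in the 7 rats with both. None of the 18 probes differed between the nostrils at 5%, and neither did any probe of the array, so that the background was 0%. Krt14 and Krt5 had an unadjusted p under 0.05, which makes 2 probes or 11.1%, against 5.89% of all tested probes. Krt14 was lower in nostril B in 7 of 7 rats, by 0.13 on average (SE 0.04, adjusted p = 0.781 in limma), and Krt5 in 6 of 7, by 0.16 (SE 0.06, adjusted p = 0.781). The summed level of the horizontal basal cell markers (B minus A) was 0.17, -0.04 and -0.06 in males 2, 5 and 6 and -0.07, -0.11, -0.18 and -0.38 in females 3, 4, 7 and 8. It was lower in B in 6 of 7 rats and lowest in female 8, as were Krt5 and Krt14, and its part in their values was not tested.

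Krt15, a type I keratin of basal layers, varied most between the nostrils. B minus A was 0.72 in male 2, 0.75 in male 5 and -0.19 in male 6, and 0.09, 0.92, 0.24 and -1.08 in females 3, 4, 7 and 8. The nostrils of female 8 thus differed 2.12-fold, with 239 times the array median in A and 113 in B, and those of female 4 ran the other way, with 112 in A and 211 in B. The mean difference of 0.21 (SE 0.21) was no larger than its error, and leaving out female 8 brought it to 0.42.

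Krt19, which lies directly beside Krt15 in the chromosome 10 cluster, showed differences of the same sign in 5 of the 7 rats. They were 0.40 in male 2, 0.54 in male 5, 0.65 in female 4 and -0.46 in female 8, the rats in which Krt15 differed most. In male 6 and female 3 the signs of the genes were opposite. Krt14, which lies in the same cluster, differed by -0.36 in female 8 but by -0.08 in female 4 and -0.02 in male 2, where Krt15 was high in nostril B.

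Krt6c differed by -0.99 in male 2 and -0.94 in female 8, in both cases with nostril A higher, and by -0.49 in female 7. In males 5 and 6 it differed by -0.15 and 0.10, and in females 3 and 4 by 0.38 and 0.17. The second Krt6c probe was dim and differed in the same direction in 5 of 7 rats, with 0.342 and 0.155 of the array median in nostrils A and B of male 2, 0.284 and 0.0865 in female 8, and 0.208 and 0.0748 in female 7. It ran the other way in male 5, with 0.225 in A and 0.255 in B, and was level in female 4, with 0.0828 and 0.0830. The summed level of the squamous markers (B minus A, log2) was -0.85, -0.44 and 0.27 in males 2, 5 and 6 and -0.25, 0.69, -0.22 and -0.46 in females 3, 4, 7 and 8, and its part in the Krt6c values was not tested. Krt8 was 0.62 lower in nostril B of male 2, and the other 6 rats lay between -0.12 and 0.21.

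The Krt18 probes gave the same sign in 7 of 7 rats, although they are different stretches of sequence. Their differences ran from -0.13 to 0.15 for A_44_P400494 and from -0.18 to 0.14 for A_44_P1025476, the smallest among the simple epithelial keratins. The dependence of the nostril difference on sex was tested as well. None of the 18 probes passed 5%, as for all probes (0%), and 4 had an unadjusted p under 0.05, Krt5, RGD1561232, Krt8 and Krt7, or 22.2% against 2.36% of all tested probes. Their adjusted p were 1.00 in limma.

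**Figure D5:**
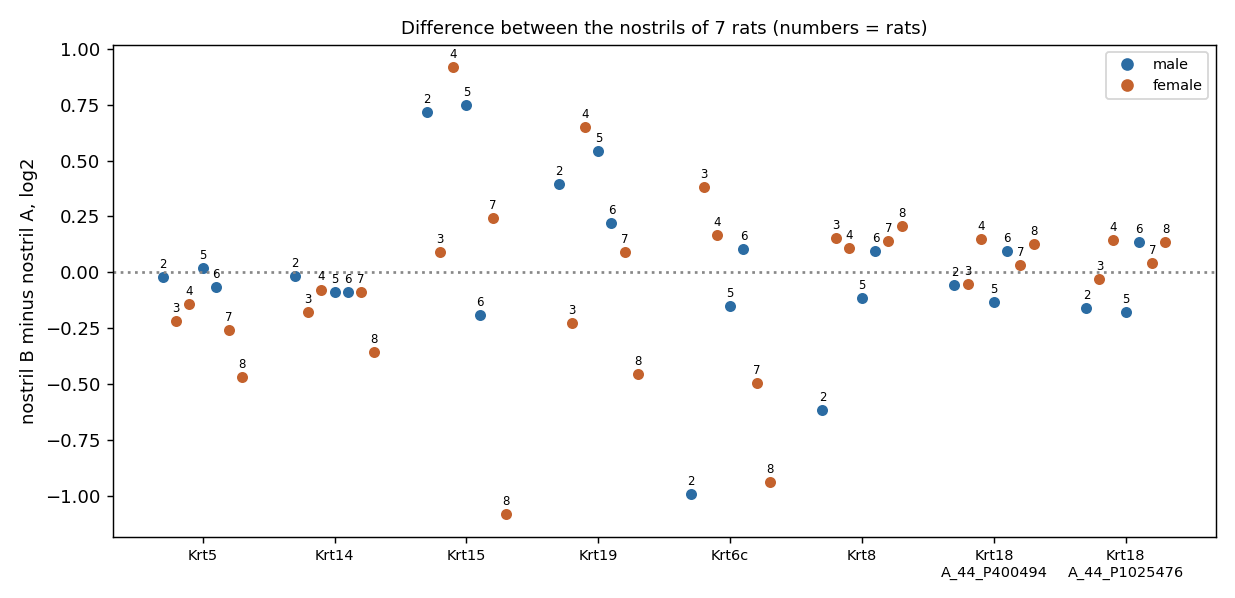
Nostril B minus nostril A (log2) of 8 keratin probes in the 7 rats with both nostrils, each point a rat with its number, blue for males and orange for females. Krt15 spreads from -1.08 to 0.92 and Krt19 follows it in rats 2, 4, 5 and 8, Krt14 lies below 0 in all rats, and both Krt18 probes stay within 0.18 of 0.

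Keratin filaments are anchored at desmosomes and hemidesmosomes by linker proteins, and these genes were examined beside the keratins. Of 18 desmosome probes 14 were expressed, where 65.1% of all probes were, among them desmoplakin (Dsp), plakoglobin (Jup) and the plakophilins, and the desmosomal cadherins of stratified epithelium Dsg3, Dsg4, Dsc1 and Dsc3 were at 0 arrays. All 13 probes of linkers (Plec, Dst, Macf1, Evpl, Ppl and Tchp) were expressed. Between rats, 2 of these 13 differed at 1% and 6 at 5%, where 2.79% and 16.1% of all tested probes did, and 0 at 5% with slide as a block. The other intermediate filament genes, from vimentin to the neurofilaments and lamins, were expressed by 14 of 14 probes. None of these lists held a probe that differed between the sexes at 5%, and the nearest was Bfsp1, a filament protein of the eye lens, at 0.53 with an adjusted p of 0.0880.

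The 6 genes that are not keratins include 3 that were expressed. Krtcap2, a subunit of the enzyme that attaches sugar chains to proteins, was expressed at 102 to 155 times the array median and differed between rats at 5% (F = 5.68, adjusted p = 0.0490 in limma), from 6.69 in female 4 to 7.23 in male 5. That call was lost after normexp (adjusted p = 0.914), with no probe filter, in the authors' table (0.0910) and without male 1, female 4, male 5, female 7 or female 8 (0.0542 to 0.139). Tchp, which binds keratin filaments, was expressed at 21.2 to 28.3 times the array median. Krtap3-3, a matrix protein of the hair shaft, was expressed on all 15 arrays at 2.00 to 2.87 times the array median, Krtap14 was seen on 1 array, and Krtap15-1 and Krtdap on 0. None of the 3 tested differed between the sexes, the differences being -0.18, -0.04 and -0.02.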

How the data were processed

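The 15 scanner files hold spot intensities that the authors extracted with Agilent Feature Extraction (9.5.1.1 per the file headers), background-subtracted and not scaled between arrays. The deposited table holds ratio values, which came within 5% of signal over array median over probe median for 100% of the values of 18872 bright probes, and it served as an alternative only. Per the file headers the positions use rn3, and RefSeq tables (GRCr8) were used for names and gene order.

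Outlier spots (61 to 175 per array, none of the 47 probes) were left out, the others averaged per probe, divided by the array median, raised to at least 0.1 of it (-3.32 on the log2 scale) and log2 transformed. Array medians ran from 57.4 to 83.4 intensity units and 26228 to 28730 probes were well above background, and the number of arrays limits the precision. Tests ran in limma 3.58.1 (R 4.3.3, eBayes with trend, two-sided, Benjamini-Hochberg over 27625 probes on rat means or 27574 on arrays) on probes detected on at least 7 arrays. Sexes were compared on rat means (4 against 4), rats on arrays within each sex, and nostrils with rat as a block. The threshold was 1%, as in the study. Normexp background correction used an offset of 50 intensity units. P-values of rats and nostrils rest on single extracts. The fits were also run on simulated data, in which the spread between rats was smaller than here or absent. That run therefore does not measure the error rates of the fits on these data. The members, gene lists and named genes (16 common keratins where detected, the 5 largest sex differences, the 8 highest F between rats, the 3 largest nostril differences) were chosen with earlier results of these data known. The Krt5 and Krt14 correlation, and the nostril correlation without female 8, were computed after the values were seen.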

Additional observations from a re-analysis of the deposited data

Results flagged for a closer look

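In 3 of the 36 groups of 4 rats examined (18 probes, each sex), 1 rat stood apart from the others of its sex by Dixon's ratio, and chance gives about 1 in 20. Krt8 was lowest in female 8, at 8.00 against 8.10 in the nearest female, with a ratio of 0.910, and the other 3 females lay within 0.01 of each other. Krt6c (A_44_P975250) was lowest in female 4, at 0.04 against 0.80, with a ratio of 0.849. Krt15 was highest in female 7, at 7.89 against 7.36, with a ratio of 0.843. No difference between nostrils depended on sex at 5%.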

How the results depend on the processing

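The count of probes differing between the sexes was 0 at 1% under every scaling, background, filter and block tried except 1, and the count for nostrils was 0 under each alternative run. For the dependence of the nostril difference on sex only the 5% threshold was tried, which also gave 0. With the 15 arrays taken as independent, which counts the nostrils of a rat as separate animals, 2 probes passed, Krt8 (0.37, adjusted p = 0.00607) and Krt17 (-0.52, adjusted p = 0.00714). The share of all tested probes that passed in that fit was not computed. The count between rats was 2 with no probe filter, Krt84 and XM_340898, both well above background on 0 arrays, and 4 at 5%, all of which were lost after normexp, with no probe filter or with slide as a block. With rat as a random block Krt17 passed 5% between the sexes (adjusted p = 0.0452), again without a computed share of all tested probes. The count of expressed probes was 18 without each rat, detection on all 15 arrays gave 17, and the looser call of a positive and significant signal gave 27. The adjusted p of Krt8 ranged from 0.0727 to 0.122 over the scalings and was 0.723 after normexp background correction (difference 0.29, SE 0.14). The cause was not tested. Without each rat in turn the Krt8 difference lay between 0.33 and 0.38 and that of Krt17 between -0.62 and -0.45. The methods' t-test gave 1 of the 18 probes an unadjusted p under 0.01, beside 1138 of all 27625 tested, and 0 at 1% after Benjamini-Hochberg adjustment, beside 5.

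Signs turned for sex differences that were not called. With slide as a block the sex difference rests on male arrays 1A, 2A and 2B against female array 3A. In that fit Krt5 gave 0.0815, Krt14 0.0603, Krt19 0.126, Krt7 -0.0247, the Krt18 probe A_44_P1025476 0.0877, Krtap3-3 0.0561 and Tchp 0.0631. The Krt18 probe A_44_P400494 gave -0.0125 with 75th percentile scaling and -0.0224 after normexp, and Krt7 gave -0.00373 with independent arrays. Leaving out a rat turned Krt7 (-0.0734 to 0.176), Krt18 (-0.00961 to 0.0533), Krt15 (-0.273 to 0.0418) and Krt19 (-0.158 to 0.0403). The nostril difference of Krt6c, -0.27, was -0.15 without male 2 and -0.38 without female 3, and that of Krt15 ran from 0.09 without female 4 to 0.42 without female 8. The share of the 18 probes higher in females was 33.3%, and 27.8% to 38.9% under other scalings, which moved the median of all probes by at most 0.03. The correlation of Krt5 and Krt14 over the rats lay between 0.974 and 0.996 without each rat and between 0.976 and 0.994 over the scalings. No paired analysis of the sexes was possible because the labels give male and female rats different numbers. Probes at background have only an upper bound, and the number of rats limits the size of difference that could be called.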

Other observations

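XM_220947, a probe on chromosome 10 described as similar to a type I keratin of the mouse, was near 0 on most arrays and well above background on 3, at 0.818 of the array median in nostril B of female 4, 0.611 in nostril A of male 6 and 0.706 in nostril A of female 7. The highest of the other 12 arrays was at 0.120, in nostril B of male 6. The other nostril of each of these 3 rats was not detected. In the same rats the summed level of the skeletal muscle markers (B minus A, log2) was -1.49 in male 6, -3.63 in female 7 and 0.09 in female 4, and its part was not tested.

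Of the probes detected on a single array, Ka11 and Krt25 were seen on a male array and Krt73, Krt76 and Krtap14 on a female array. All 5 were close to the limit of detection, with a highest signal between 0.190 and 0.260 of the array median.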
